A study of Mus musculus with 20 samples.

Results

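The transcripts described here were those at their maximum in 8-cell mouse embryos, among 5 sampled stages of preimplantation development. They were selected on their measured levels: the 8-cell mean of log2(intensity + 20) had to exceed the mean of each of oocytes, 1-cell embryos, 2-cell embryos and blastocysts by at least 1.2, for probe sets with exactly 1 gene symbol and with controls left out. A probe set is the group of short probes on an Affymetrix array that together report 1 transcript. Of 14661 such probe sets, 125 (0.853%) met this rule, and they stand for 108 genes. The difference between the 8-cell mean and the highest other stage mean is called the margin below. It chose the members, so every 8-cell value is given as a description and none is tested.

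The series holds 20 MOE430B arrays, 4 each of oocytes, 1-cell embryos, 2-cell embryos, 8-cell embryos and blastocysts of Mus musculus, and their total RNA was amplified in 2 rounds of in vitro transcription. The labels give neither strain, age, mating, culture nor the number of oocytes or embryos behind an array. They do not say whether the 4 arrays of a stage come from separate pools, so p-values measure the spread between these arrays, which may be technical. The stages are the groups the study compared, and the labels name no treatment or genotype.

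In the mouse, the genome of the embryo is silent at fertilization and early development runs on RNA stored in the oocyte. A minor burst of transcription in the 1-cell embryo is followed by the major activation in the 2-cell embryo, while maternal RNA is degraded. The 8-cell embryo then compacts, its cells polarize, and the next divisions separate the outer cells that become trophectoderm from the inner cells of the blastocyst.

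Values are intensities on a linear scale that the authors had brought to a common mean on each array. The median intensity per array ran from 90.1 to 93.2 at the 8-cell stage and from 67.8 to 90.0 at the other stages. The 18 probe sets for the bacterial and phage hybridization controls, transcripts that are spiked in and not made by the embryo, were themselves highest at the 8-cell stage: their mean log2 level was 12.9, 12.9, 12.3 and 12.3 on the 8-cell arrays and lay between 10.7 and 12.3 on the 16 others. Their margins ran from 0.74 to 1.23 with a median of 0.90, and 1 control would have met the rule. Of the 125 members, 117 had a margin above the largest control margin, which follows largely from the threshold of 1.2 that chose them. When every array was centred on these controls, 8 members of 7 genes still met the rule: Cthrc1, Cand1, both probe sets of Zc3h12c, and 1 each of Snhg14, Larp4, Dynap and Tbc1d9, with margins of 1.34 to 2.28. The part of this array scale in the other members was not tested. The 3' over 5' log2 ratio of the Gapdh controls was also lower at the 8-cell stage, at 0.64 to 1.5 against 1.74 to 2.86 elsewhere, and its part was not tested. The median of log2(intensity + 20) over all probe sets was itself slightly higher at the 8-cell stage, at a mean of 6.81 over its arrays, than in oocytes (6.55), 1-cell embryos (6.54), 2-cell embryos (6.72) and blastocysts (6.74).

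**Figure D1:**
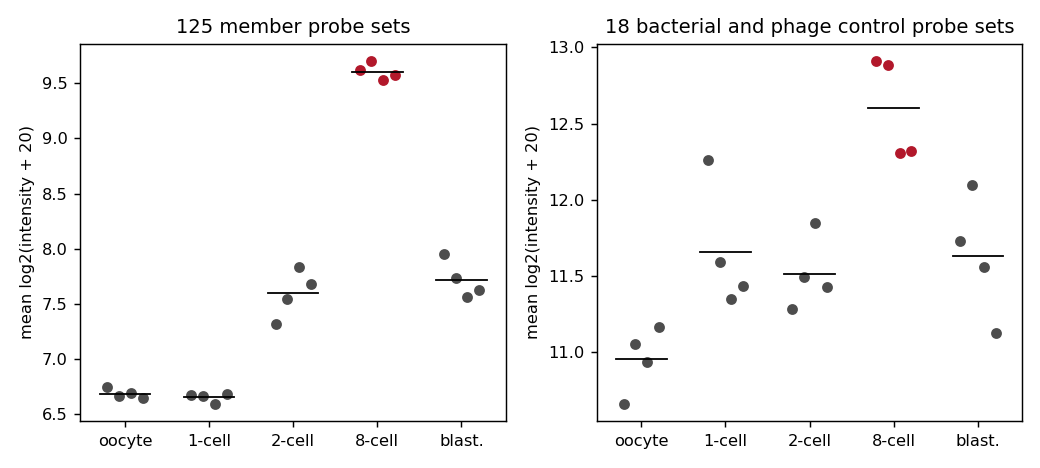
Mean log2(intensity + 20) per array over the 125 members (left) and over the 18 bacterial and phage control probe sets (right), with 8-cell arrays in red and lines at stage means; the axes do not start at 0. Members averaged 9.52 to 9.70 on the 8-cell arrays and 6.59 to 7.96 on the others, and the controls were also highest at the 8-cell stage.

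The stage labels were set against marker lists. Summed over 35 oocyte and maternal genes, the 8-cell intensity was 12016 ± 607, against 366291 ± 31759 in oocytes (SD, n = 4). The 10 genes of the cleavage-activation list summed to 23620 ± 2894 at the 8-cell stage, above every other stage. Chka, 1 of the 10, is a member, and without it the 8-cell sum was 21701 ± 2747. The 15 trophectoderm genes were highest in blastocysts at 26847 ± 2583, against 6999 ± 410 at the 8-cell stage. The 19 inner cell mass and pluripotency genes were also highest in blastocysts, at 24085 ± 4174, against 18753 ± 2039 at the 8-cell stage. For the 15 primitive endoderm genes the sum was instead highest in oocytes, at 5136 ± 78.7. It was 3344 ± 307 at the 8-cell stage and 2935 ± 112 in blastocysts. Brighter genes weigh more in such a sum. Gene by gene, in the tests described below, 7 of 13 tested were higher in blastocysts than in oocytes and 1 was lower. Markers of other cells were not highest at the 8-cell stage. The 7 cumulus and granulosa genes summed to 1853 ± 189 there, the 14 sperm genes to 1897 ± 267 and the 5 blood and reproductive tract genes to 935 ± 73.1. At other stages these sums averaged 1308 to 2974, 1513 to 1938 and 838 to 1182. No member was among these last 3 lists.

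The promoters of 4 members are shown because these genes have the largest margins among those with a single promoter in the RefSeq table of GRCm38.p6. Genes of 1 chromosome were left out of this choice. Each runs from 250 bases before the start of the gene to 50 after it, 5′ to 3′ on the strand of the gene. Capitals mark matches, on either strand, to any of 16 short motifs, of which the GC box GGGCGG, the CCAAT box CCAAT, the TEAD motif GGAATG and the ETS motif CCGGAAG were found. Cand1 lies at chr10:119240006-119240305 on the minus strand, Tbc1d9 at chr8:83165102-83165401 on the plus strand, Snhg14 at chr7:60450128-60450427 on the minus strand and Larp4 at chr15:99972530-99972829 on the plus strand.
Cand1: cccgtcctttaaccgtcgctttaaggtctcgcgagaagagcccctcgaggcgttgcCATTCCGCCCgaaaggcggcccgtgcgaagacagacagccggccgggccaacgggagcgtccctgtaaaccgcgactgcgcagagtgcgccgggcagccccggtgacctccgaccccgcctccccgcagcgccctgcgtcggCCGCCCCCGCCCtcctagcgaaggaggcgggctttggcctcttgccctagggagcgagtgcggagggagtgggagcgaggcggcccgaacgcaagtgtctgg
Tbc1d9: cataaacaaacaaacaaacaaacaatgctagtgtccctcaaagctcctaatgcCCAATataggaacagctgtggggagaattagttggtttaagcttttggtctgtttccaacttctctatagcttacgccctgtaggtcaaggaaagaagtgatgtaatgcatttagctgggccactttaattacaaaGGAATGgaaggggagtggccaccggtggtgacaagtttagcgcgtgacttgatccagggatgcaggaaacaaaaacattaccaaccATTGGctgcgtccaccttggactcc
Snhg14: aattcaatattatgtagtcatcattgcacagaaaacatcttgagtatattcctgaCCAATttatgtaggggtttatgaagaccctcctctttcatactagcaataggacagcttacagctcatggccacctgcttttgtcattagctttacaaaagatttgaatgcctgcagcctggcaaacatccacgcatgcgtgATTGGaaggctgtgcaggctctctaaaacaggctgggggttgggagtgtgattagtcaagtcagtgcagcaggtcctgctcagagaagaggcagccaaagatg
Larp4: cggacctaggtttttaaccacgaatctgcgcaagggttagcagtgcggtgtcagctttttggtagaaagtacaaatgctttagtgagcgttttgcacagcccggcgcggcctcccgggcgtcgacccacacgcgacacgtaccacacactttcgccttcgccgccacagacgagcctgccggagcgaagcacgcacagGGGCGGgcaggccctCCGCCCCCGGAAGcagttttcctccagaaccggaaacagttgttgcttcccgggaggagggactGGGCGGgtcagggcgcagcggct
The Cand1 promoter held 3 GC boxes and 1 TEAD motif, the first GC box overlapping the TEAD motif, and was 71.0% G or C. The Larp4 promoter held 3 GC boxes and 1 ETS motif at 62.7% G or C, a GC box being directly followed by the ETS motif. The other two were at 45.0% G or C with no GC box. Tbc1d9 held 2 CCAAT boxes and 1 TEAD motif, and Snhg14 held 2 CCAAT boxes. A match is a description of letters and does not show that a factor binds there.

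The table gave 113 promoters for 92 of the 108 member genes. Their median content of G or C was 61.0%, against 58.3% for the 9456 promoters of all genes on the array and 52.7% for all 32851 promoters. A GC box stood in 60.2% of member promoters, against 51.8% of promoters of genes on the array and 35.7% of all. For the CCAAT box the shares were 37.2%, 37.4% and 37.4%. For the TATA box TATAAA they were 7.96%, 8.94% and 13.6%, for the TEAD motif 15%, 12.9% and 14.7%, and for the ETS motif 13.3%, 12.9% and 8.86%. The homeodomain core GGATTA, which OBOX and OTX factors bind, stood in 6.19%, 6.37% and 7.06%. The nuclear receptor sequence TCAAGGTCA stood in 1 member promoter (0.885%, against 0.370% of promoters of genes on the array). The shorter AAGGTCA, which it contains, stood in 3 (2.655%, against 4.082%). The E-box CACGTG stood in 11.5%, 8.39% and 7.15%, the KLF motif CCCACCC in 19.5%, 20.3% and 17.5%, the TFAP2 motif GCCNNNGGC in 23%, 21.6% and 16.6%, and the GATA motif AGATAA in 8.85%, 7.76% and 11.2%. The AP-1 motif TGANTCA, the CREB site TGACGTCA, the YY1 motif AAGATGGC and the octamer ATGCAAAT stood in 3, 5, 7 and 1 of the 113 member promoters, against 5.67%, 2.73%, 3.47% and 1.17% of promoters of genes on the array. Member promoters were thus close to promoters of the genes on the array for most of these motifs, and several promoters of 1 gene share sequence.

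Members differed in how much of the RNA was already there. The 8-cell mean ran from 63.0 to 19950 with a median of 709, and 8 members exceeded 10000. For 30 members only the 8-cell mean reached the overall median intensity, 82.6, whereas 57 had an oocyte mean at or above it. The term transient therefore describes the maximum among 5 sampled stages, and embryos between these stages were not analysed here. Relative to oocytes, the median member was higher by 2.70 at the 8-cell stage (1.28 to 7.01, log2 scale), relative to 1-cell embryos by 2.61, relative to 2-cell embryos by 1.81 and relative to blastocysts by 1.67 (1.2 to 3.75). The stage next below the 8-cell stage was the oocyte for 6 members, the 1-cell embryo for 10, the 2-cell embryo for 49 and the blastocyst for 60.

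**Figure D2:**
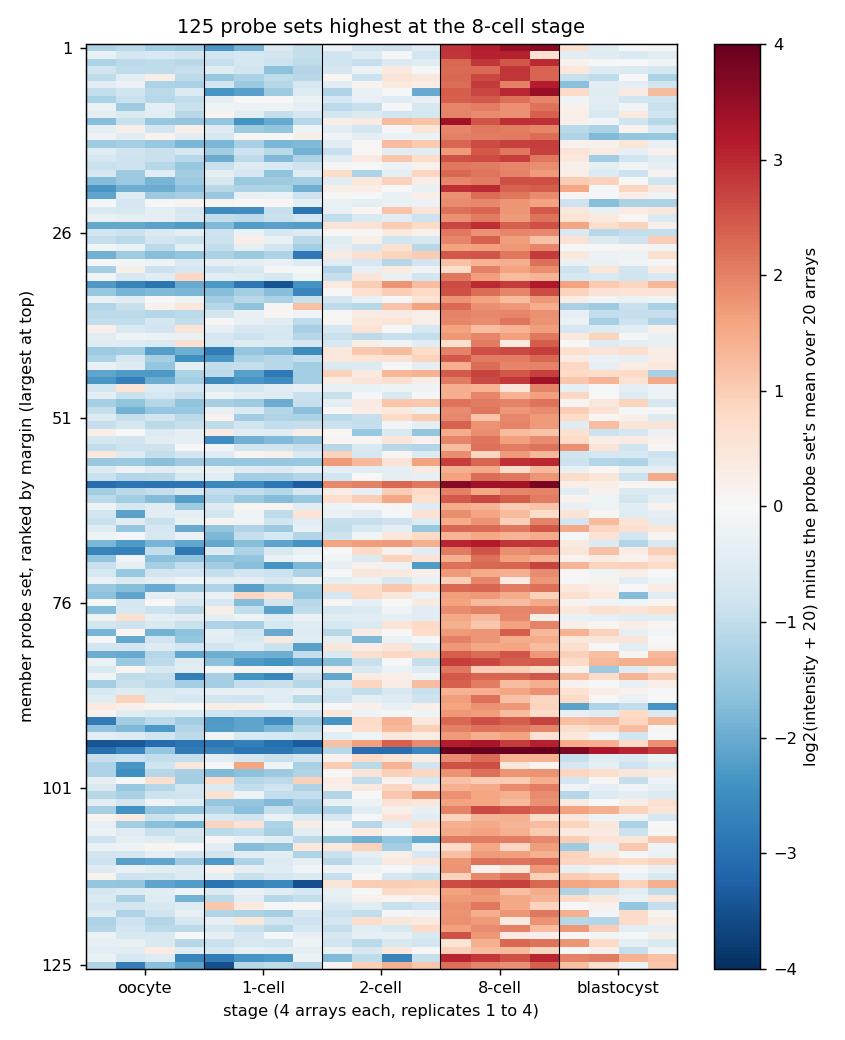
Colour gives the log2(intensity + 20) of each of the 125 members (rows, ranked by margin with the largest at the top) on each of the 20 arrays (columns, 4 per stage in developmental order), minus that member's mean over all arrays; the colours end at 4 units to either side. The 8-cell columns are the reddest by construction; oocyte and 1-cell columns are the bluest in most rows, and 2-cell and blastocyst columns lie between.

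All 4 8-cell arrays lay above all 16 other arrays in 106 members and not in the remaining 19. The median margin was 1.42, a 2.68-fold difference on the scale with 20 added, which understates folds of dim probe sets. The margin was at least 2 in 20 members and under 1.5 in 70. Just inside the threshold lay probe sets of Gm32031, Cul5 and Bri3bp with 1.205, 1.205 and 1.204, and just outside it probe sets of 2610044O15Rik8, Nrxn3 and Gramd1b with 1.197, 1.189 and 1.188. The same rule with another stage on top gives 116 probe sets for oocytes, 29 for 1-cell embryos, 108 for 2-cell embryos and 287 for blastocysts. In bulk RNA, fewer cells with a transcript and less of it in each cell cannot be told apart.

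The largest margin, 3.26, belonged to Cthrc1 (1452968_at), which encodes a secreted glycoprotein of the extracellular matrix. Its intensities were 108, 123, 99 and 89.4 in oocytes, 39.6, 63.7, 181 and 136 in 1-cell embryos, 239, 155, 151 and 192 in 2-cell embryos, 2239, 2627, 3346 and 3657 in 8-cell embryos and 438, 205, 278 and 266 in blastocysts. The 8-cell arrays were far above all others without overlap, and the 2-cell and blastocyst arrays all stood above the oocyte arrays. Dynap, a dynactin-associated membrane protein, had a margin of 2.49, with 8-cell intensities of 399.8, 511, 603 and 409.5 and 10 to 104 over the other 16 arrays. Ypel2, a member of the yippee-like family, had 2 member probe sets with margins of 2.25 and 2.22. The first read 2194, 2329, 2003 and 2548 at the 8-cell stage and 195 to 622 elsewhere. The second read 16692, 15831, 15091 and 22305 at the 8-cell stage and 1945 to 5526 elsewhere. In neither did the groups overlap, and no comparison among the other stages was called for either.

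**Figure D3:**
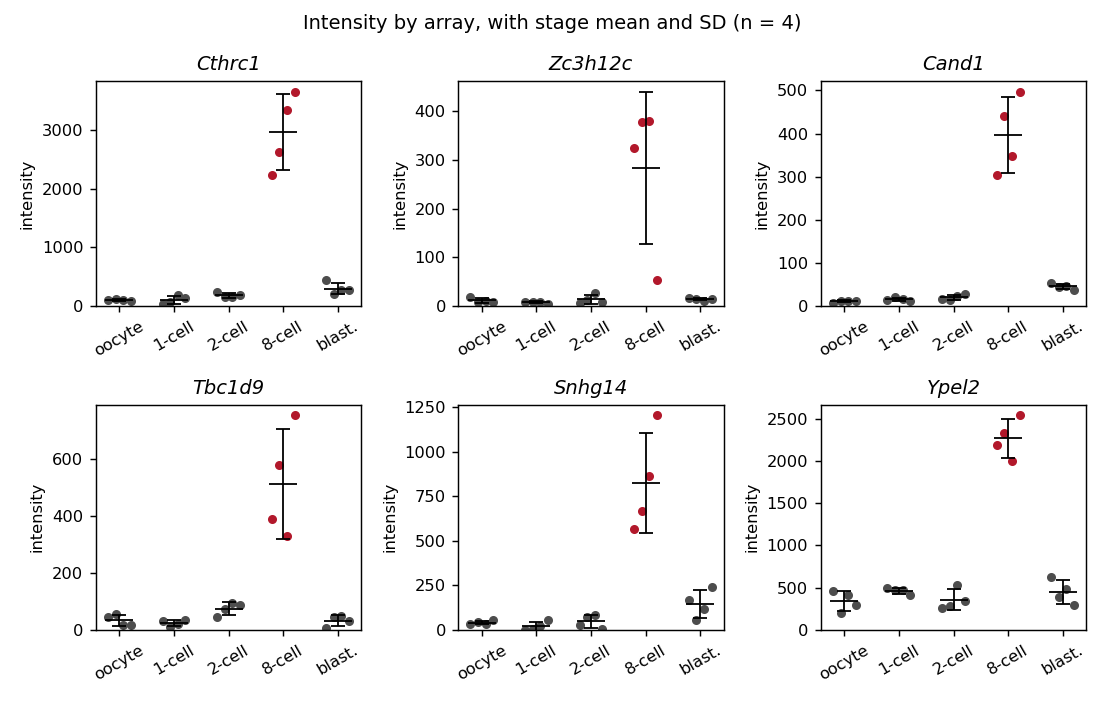
Intensity (linear axis from 0) of 6 members on each array, with 8-cell arrays in red, the other stages in grey, and the stage mean ± SD (n = 4) as black bars. The 8-cell arrays stand above all others in each panel, with the fourth array of Zc3h12c at 53.0 and the other 3 at 325 to 379.

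Genes for RNA binding and RNA turnover gave 12 members from 8 genes, with margins of 1.29 to 2.89. Zc3h12c encodes a CCCH zinc finger protein of the Regnase family of endoribonucleases, and both of its member probe sets were among the 4 largest margins. On 1441787_at the 8-cell intensities were 325, 379, 379 and 53 and the other arrays read 4.5 to 26.3, so the fourth array stood far below the other 3 and still above all remaining arrays. On 1444402_at they were 624, 627, 939 and 646, against 22.6 to 159. Gigyf2, a partner of the cap-binding repressor 4EHP in silencing of translation, read 5.0 to 50.4 in oocytes and 1-cell embryos, 135, 144, 298 and 268 in 2-cell embryos, 1324, 737, 993 and 981 in 8-cell embryos and 132, 101, 55.8 and 39.7 in blastocysts. Its blastocyst arrays all lay below its 2-cell arrays. Ago4, an Argonaute protein that binds small RNAs, had margins of 2.07 and 1.75 on its member probe sets, with 8-cell intensities of 431 to 895 and 674 to 1415 and no overlap with other arrays on either. Tent4b, a non-canonical poly(A) polymerase, read 9549, 11377, 8819 and 12156 at the 8-cell stage and 1296 to 3951 on the others. Cpsf6, of the cleavage factor for mRNA 3′ ends, Rbm41, of the minor spliceosome, and Gemin5, of the complex that assembles spliceosomal particles, had margins of 1.29, 1.37 and 1.38.

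Larp4, which binds poly(A) and its binding protein and stabilizes mRNA, was the only gene with 3 member probe sets. On 1439010_at the intensities were 576, 751, 640.0 and 705 in oocytes, 1073, 1443, 1419.9 and 1177 in 1-cell embryos, 888, 1127, 988 and 1129 in 2-cell embryos, 7479, 7868, 6563 and 5601 in 8-cell embryos and 1267, 1054, 835 and 805 in blastocysts. On 1455102_at they were 559.5, 406, 538 and 463 in oocytes, 472, 599, 447 and 369 in 1-cell embryos, 6003, 6472, 6566 and 5438 in 2-cell embryos, 16872, 18448, 14846 and 14495 in 8-cell embryos and 2571, 1386, 893 and 1285 in blastocysts. The 8-cell arrays were highest without overlap on both, but the 2-cell arrays were among the low ones on the first and second only to the 8-cell arrays on the second. The 2-cell minus 1-cell difference was 3.66 (SE 0.22, adjusted p = 4.82e-12) on 1455102_at, 0.73 (SE 0.22, adjusted p = 0.0156) on 1437177_at and -0.30 on 1439010_at, where it was not called. Which transcript forms these probe sets report was not tested.

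The small nucleolar RNA host genes Snhg14 and Snhg3 are long non-coding transcripts whose introns carry small nucleolar RNAs; Snhg14 spans the imprinted Prader-Willi and Angelman region. On 1455087_at, Snhg14 read 0.90 to 85.2 before the 8-cell stage, 567, 664, 862 and 1202 in 8-cell embryos and 165, 56.9, 115 and 241 in blastocysts. On 1436964_at it read 139, 225, 203 and 159 at the 8-cell stage, against 0.20 to 129 elsewhere. Snhg3 read 133 to 336 in oocytes and 1-cell embryos, 874, 917, 734 and 601 in 2-cell embryos, 5769.5, 6039, 3901 and 4061 in 8-cell embryos and 2225, 700.3, 1357 and 943 in blastocysts. For all 3 probe sets the blastocyst was the next stage, and each was called higher in blastocysts than in oocytes (1436964_at being one that the filter described below admitted mainly through its 8-cell arrays), by 2.65 for Snhg3 and by 1.32 and 1.43 for Snhg14.

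The ubiquitin system gave 9 members from 6 genes, several of them parts of cullin-RING ligases. Cand1, which exchanges the substrate receptors of these ligases, read 8.1 to 27.1 before the 8-cell stage, 303, 440.1, 347 and 497 in 8-cell embryos and 53.8, 44.2, 46.7 and 38.1 in blastocysts. The blastocyst arrays, though low, all lay above every earlier array. Outside the 8-cell stage it never reached the level of 82.6 that the tests below ask for, so its comparisons among those stages are not reported. Fbxl20, an F-box receptor, had its lowest level after the maximum. On 1452826_s_at it read 1348 to 2548 before the 8-cell stage, 8809, 8926, 9155 and 10143 in 8-cell embryos and 925, 612, 699.8 and 744 in blastocysts, which lay below every other array. In blastocysts relative to oocytes it fell by 1.29 on the log2 scale (SE 0.18, adjusted p = 3.14e-06), and 1456378_s_at was called the same way. Cul5, a cullin scaffold, had 2 members just above the threshold that disagreed before the maximum: 1456102_a_at read 3086, 1909, 1361 and 1495 in 1-cell embryos and 834, 858, 909 and 1010.3 in oocytes, whereas 1428287_at read 6.1, 14.8, 16.9 and 132 in 1-cell embryos and 131, 93.7, 107 and 9.2 in oocytes. The first was called higher in 1-cell embryos than in oocytes, by 1.03 (SE 0.30, adjusted p = 0.0383), and the second was not called. Arih2, a ligase that works with neddylated Cul5, and Mysm1, a deubiquitinase of histone H2A, had margins of 1.32 and of 1.31 and 1.33.

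Transporters gave 7 members from 6 genes. Nipal1, of a family of magnesium transporters, had margins of 2.14 and 2.07. On 1453345_at it read 189 to 284 in oocytes and 1-cell embryos, 521, 746, 1758 and 1524 in 2-cell embryos, 3705, 4533, 4929 and 5092 in 8-cell embryos and 824, 829.6, 1037 and 579.9 in blastocysts. Slco4c1, an organic anion transporter, read 903, 993, 1412 and 1404 at the 8-cell stage and 46.1 to 466 elsewhere. Slc49a4, a transporter of the lysosomal membrane, read 67.4 to 104 in oocytes and 1-cell embryos, 586, 612, 836 and 711 in 2-cell embryos, 2687, 3239.8, 2210.4 and 2531 in 8-cell embryos and 1238, 664, 782 and 472 in blastocysts. These 3 genes were above their oocyte and 1-cell levels on every 2-cell array. The mitochondrial carriers Slc25a12, for aspartate and glutamate, Slc25a36, for pyrimidine nucleotides, and Slc25a41, for ATP-magnesium and phosphate, had margins of 1.79, 1.39 and 1.63. Slc25a41 was dim, and its 8-cell arrays at 42.6, 152, 33.2 and 198 overlapped an oocyte array at 42.4.

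Kinases, phosphatases and receptors formed the largest group with 15 members from 12 genes, at margins of 1.21 to 1.74. Ppm1a, a phosphatase of the PP2C type, read 137 to 244 in oocytes and 1-cell embryos on 1453171_s_at, 5873, 6226, 7594 and 6709 in 2-cell embryos, 19499.9, 15885, 15899.9 and 21688 in 8-cell embryos and 1813, 1847, 1608 and 1658 in blastocysts. The arrays of the last 3 of these stages did not overlap with each other or with the earlier ones. Stk4, a kinase of the Hippo pathway, read 59.3 to 467 before the 8-cell stage on 1436015_s_at, 1663, 2625, 2352 and 2122 in 8-cell embryos and 1274, 1105, 778 and 572 in blastocysts. Pik3cb, a catalytic subunit of phosphoinositide 3-kinase, read 2345, 1897, 1549.8 and 2483, against 46.8 to 791 elsewhere. The phosphatase Cdc14b had 2 members, of which 1429418_at read 30.9 to 178 in oocytes and 1-cell embryos, 799 to 1163 in 2-cell embryos, 2839 to 3886 in 8-cell embryos and 1087 to 1736 in blastocysts. Gpr161, a receptor of the primary cilium that restrains Hedgehog signalling, had margins of 1.61 on both members. Prkaa1, Prkar2a, Wnk3, Irak3, Plcd3, Ppm1k and Ackr4 made up the rest.

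Metabolic enzymes gave 10 members, and genes of autophagy, the lysosome and vesicles 7. Gpd1l, a relative of glycerol-3-phosphate dehydrogenase, read 19659, 19464, 17707 and 16529 at the 8-cell stage and 1588 to 5259.6 elsewhere on 1438195_at, without overlap. Vnn1, which splits pantetheine into pantothenic acid and cysteamine, had the largest difference of any member between 8-cell and 1-cell embryos, 7.27 on the log2 scale. It read 5.8 to 78.5 before the 8-cell stage, 4306, 5169.9, 6059 and 3981 in 8-cell embryos and 2819, 1999, 1722 and 1463 in blastocysts. Its blastocyst level was well above its earlier levels although the rule counts it among the members. Map1lc3a, an LC3 protein of autophagosomes, read 18175, 20932, 14672 and 17649 at the 8-cell stage and was lowest in 1-cell embryos at 819, 1240.1, 1364 and 1564. Its probe set is of the x_at type, which can hybridize with other transcripts. Becn2, a beclin, and Tmem41b, an endoplasmic reticulum protein needed for autophagosome formation, had margins of 1.76 and 1.25. Tbc1d9, of a family of Rab GTPase-activating proteins, read 389, 576, 328 and 752 at the 8-cell stage and 7.2 to 93.3 elsewhere, without overlap.

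Chromatin and transcription genes gave 11 members with a median margin of 1.33, headed by Patz1, a zinc finger protein, at 1.68 and Actr5, of the INO80 remodeller, at 1.57. The 7 genes of tRNA and the ribosome gave 8 members at 1.22 to 1.63, among them the mitochondrial tRNA synthetases Wars2 and Lars2, the tRNA methyltransferase Trmt61b and the small-subunit processing factors Wdr46 and Tbl3. Cytoskeletal and scaffold genes gave 7 members, headed by the axonemal dynein light chain Dnal1 at 2.19 and the microtubule-associated Map7d2 at 1.84 and 1.76, followed by the actin nucleator Jmy at 1.58. The other 34 genes, with 36 members, were given no role here. They include Lhfpl5, a tetraspan protein of hair cells, at 2.04 and Lemd3, of the inner nuclear membrane, at 1.69. The 45 member probe sets outside the rule for naming had margins of 1.21 to 1.97, and in 35 of them all 8-cell arrays lay above the 16 others.

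More than 1 member probe set was found for 16 genes, 33 in all, so members are not independent of each other. A further 89 probe sets, of 56 of the member genes, were not members. Of these, 73 passed the filter on dim values described below, and 52 of the 73 had their highest mean at the 8-cell stage, 28 with a margin of at least 0.5. That filter also reads the 8-cell arrays, so a dim probe set could pass through them alone, here and among all named probe sets. Over all named probe sets that passed this filter, members left out, the 8-cell stage was highest in 25%, and in 5.09% with a margin of at least 0.5. The others went different ways. Homer1, a scaffold of synapses, read 549 ± 63.7 at the 8-cell stage and 46.6 ± 21.4 at the 2-cell stage on its member 1436387_at (SD, n = 4). On 1437363_at it read 94.3 ± 44.2 at the 8-cell stage and 435 ± 47 at the 2-cell stage, the opposite order. Lars2 read 177 ± 43.2 at the 8-cell stage and 81.1 ± 72.2 in blastocysts on its member, but 225 ± 66.1 at the 8-cell stage and 1139 ± 305 in blastocysts on 1435682_at. On 1428998_at, Phf3 read 2534 ± 482 at the 8-cell stage and was highest in oocytes, at 5249.6 ± 771. On 1429501_s_at, Ppm1a read 2615 ± 575 at the 8-cell stage and 2735 ± 626 at the 2-cell stage, a difference within the SDs. Phf3 itself was divided, since 1420119_s_at and 1420120_at were highest at the 8-cell stage, at 1782 ± 795 and 238 ± 103, and its other 3 probe sets at earlier stages. Both other probe sets of Prkar2a, a regulatory subunit of protein kinase A, were brighter elsewhere: 1428783_at read 719.9 ± 72.3 at the 8-cell stage and 1496 ± 95 in 1-cell embryos, and 1452915_at read 1197 ± 100.5 at the 8-cell stage and 2131 ± 605 in blastocysts. Of 5 other probe sets of Cpsf6, 2 were highest at the 8-cell stage, 2 in blastocysts, and 1428232_at in 2-cell embryos, at 1204 ± 273 at the 8-cell stage and 2151 ± 525 at the 2-cell stage.

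**Figure D4:**
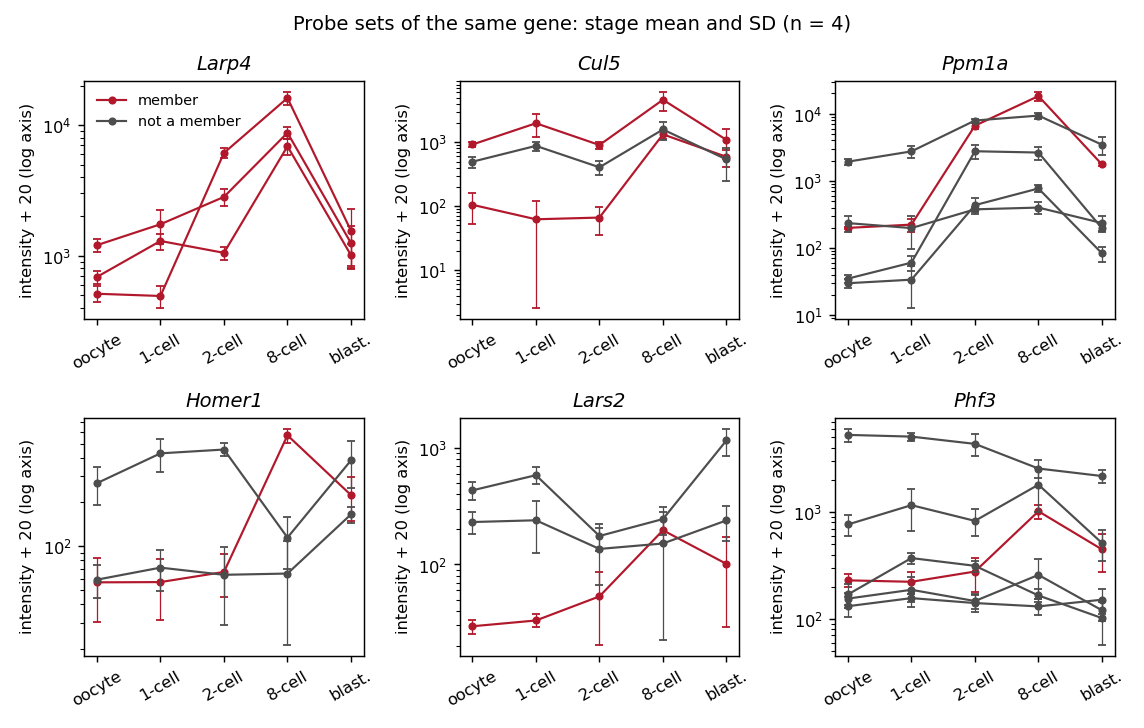
Stage means ± SD (n = 4) of intensity + 20 on a log axis for every probe set of 6 member genes, members in red and other probe sets of the gene in grey. Larp4 and Cul5 probe sets share the 8-cell maximum, whereas the grey lines of Homer1 and Lars2 and 3 of the 5 grey lines of Phf3 peak at other stages.

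The rule did not compare the other stages with each other, although it bounds each of them by the 8-cell level. Whether members already moved before the 8-cell stage, and whether they were back at their starting level in blastocysts, was tested in limma over the 15234 probe sets that were no dimmer than the overall median intensity, 82.6, on 4 or more arrays, with Benjamini-Hochberg adjustment and calls at an adjusted p under 0.05. Of the members, 114 passed this filter and 11 did not; 5 passed only through their 8-cell arrays, Cand1, Dnal1, Cplx2, Gm20161 and 1 probe set of Map7d2, and 25 in all had fewer than 4 other arrays at that level. Counts over the 114 are therefore descriptions of those that passed. With the filter read on the 16 other arrays alone, an alternative added after seeing the data, 89 members and 14240 probe sets were tested, and 50 members rose from the 1-cell to the 2-cell stage (56.2%, against 12.7% of all).

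From the 1-cell to the 2-cell stage, 56 of the 114 members rose (49.1%), against 12.2% of all tested probe sets, and 2 fell (1.75%), against 9.34% of all. The median member difference was 0.79 and that of all tested probe sets 0.07 (2-cell minus 1-cell, log2 scale). The largest rises by probe set were in Ppm1a on 1453171_s_at, by 4.92 (SE 0.16, adjusted p = 9.43e-17), and in Bri3bp on 1428744_s_at, by 4.76 (SE 0.24, adjusted p = 2.60e-13). Lemd3 on 1435291_at came next, with 3.85 (SE 0.28, adjusted p = 1.39e-10). Bri3bp read 612, 846, 1428 and 1006 in 2-cell embryos and 17.9, 22, 14.6 and 7.5 in 1-cell embryos, with no overlap. Lemd3 read 428, 665, 1178 and 787 in 2-cell embryos and 49.4, 26.6, 11.8 and 46 in 1-cell embryos, again with no overlap. The other Bri3bp member, 1428743_at, read 888 ± 316 in 2-cell and 151 ± 87.4 in 1-cell embryos (SD, n = 4). On 1438198_at, not a member, Bri3bp read 182 ± 60.0 in 2-cell and 186 ± 86.6 in 1-cell embryos. On 1439587_at, not a member, Lemd3 read 432 ± 102 in 2-cell and 277 ± 57.1 in 1-cell embryos. The probe sets of Ppm1a that are not members also had higher 2-cell than 1-cell means. Of these, 1415678_at read 7881 ± 389 in 2-cell and 2721 ± 559 in 1-cell embryos. On 1429501_s_at these values were 2735 ± 626 and 40.3 ± 14.4. Cdc14b on 1429418_at rose by 3.80, Gpr161 on 1436459_at by 3.03, Jmy by 2.87 and Slc49a4 by 2.83. Sapcd2, a regulator of spindle orientation, rose by 2.80 on 1429404_at. Tmem41b fell by 1.35 (SE 0.21, adjusted p = 1.79e-05) and Cul5 on 1456102_a_at fell by 1.06 (SE 0.30, adjusted p = 0.0123). Without 1-cell replicate 1, a single member was called lower.

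By role, 5 of 6 tested transport members rose at the 2-cell stage, 5 of 7 of autophagy, lysosome and vesicles, 8 of 14 kinases, phosphatases and receptors, 6 of 10 of chromatin and transcription, 6 of 10 metabolic enzymes, 6 of 11 of RNA binding and turnover, 4 of 8 of tRNA and the ribosome, 3 of 6 of the cytoskeleton and scaffolds, 1 of 3 small nucleolar RNA host probe sets and 10 of 30 without a role. In the ubiquitin system 2 of 9 rose, Arih2 and 1 probe set of Mysm1, and 1 fell. Some members in these counts passed the filter only through their 8-cell arrays. They are Cand1 in the ubiquitin system, Dnal1 and 1 probe set of Map7d2 among the cytoskeleton and scaffolds, and Cplx2 and Gm20161. Mysm1 on 1460159_at, Tbc1d9, Dynap, P4htm and Hsd17b14 were among those that passed mainly through their 8-cell arrays. Their calls as higher at the 2-cell stage rest on values mostly under the filter level. Of all tested probe sets 12.2% rose. These groups were drawn up with the results known, so their shares are not compared by a test. The 56 members that did not pass in either direction include Lhfpl5, both probe sets of Ypel2 and Fbxl20, and both of Wars2, a mitochondrial tryptophanyl-tRNA synthetase.

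**Figure D5:**
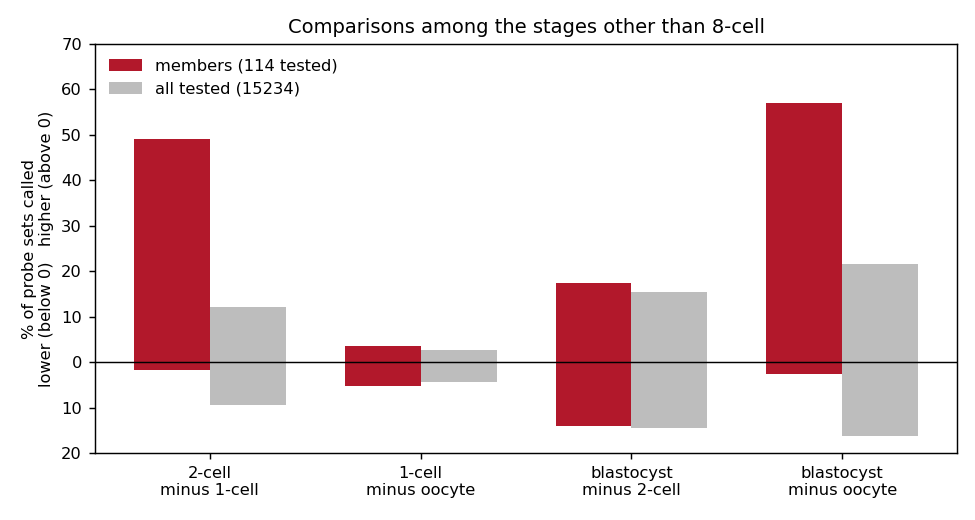
Bars give the percentage of the 114 tested members (red, left) and of all 15234 tested probe sets (grey, right) called higher (above 0) or lower (below 0) in each comparison among the 4 stages other than 8-cell. Members exceed the grey bars upwards for 2-cell minus 1-cell (49.1% against 12.2%) and blastocyst minus oocyte (57.0% against 21.6%), and stand close to them in the other comparisons.

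Between oocytes and 1-cell embryos few members changed. Of those tested, 4 rose (3.51%, against 2.67% of all) and 6 fell (5.26%, against 4.26%), shares near those of all tested probe sets. Chka, a choline kinase, rose by 1.61 (SE 0.33, adjusted p = 0.00240) and read 182, 105, 167 and 219 in 1-cell embryos and 26.7, 25.7, 130.2 and 20.2 in oocytes, where a single array overlapped with them. Larp4 on 1439010_at, Gpd1l on 1438196_at and Cul5 on 1456102_a_at were the others. Map1lc3a fell by 1.37 (SE 0.20, adjusted p = 4.15e-05). Tbl3, Cdc14b on 1429418_at, Map7d2 on 1429013_at, Ctu2 on 1439387_x_at and Patz1 followed. Cdc14b on 1437070_at read 277 ± 99.8 in oocytes and 270 ± 50.6 in 1-cell embryos (SD, n = 4). The other Map7d2 member was not called. Ctu2 on 1428350_at, not a member, read 261 ± 59.7 in oocytes and 209 ± 71.6 in 1-cell embryos, a difference within the SDs. With arrays centred on the hybridization controls, no member was called higher and 27 lower (23.7%, against 19% of all), and the median of all tested probe sets in this comparison was itself -0.69. The 18S ribosomal RNA control was far brighter in 1-cell embryos, at 32272 to 42929, than at any other stage, at 398 to 3808; its part in comparisons with that stage was not tested.

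Blastocysts and 2-cell embryos, the stages on either side of the maximum, differed in both directions. In all, 20 members were higher in blastocysts (17.5%, against 15.4% of all) and 16 lower (14.0%, against 14.5%), again near the shares of all probe sets. Without 2-cell replicate 1, 13 were higher and 19 lower. Vnn1 stood out with a rise of 5.65 (SE 0.35, adjusted p = 3.01e-12). Tmem41b rose by 2.56 (SE 0.21, adjusted p = 3.83e-10), with 1006, 751, 698 and 1061 in blastocysts and 148, 117, 158 and 103 in 2-cell embryos. Ctu2, of tRNA thiolation, rose by 2.13 and Cul5 on 1428287_at by 3.25. Both probe sets of Wars2 were called higher, as was Stk4 on 1436015_s_at. Stk4 on 1434159_at was also called higher, but the filter admitted it mainly through its arrays at the maximum. It read 17.8, 10.1, 21.3 and 17.6 in 2-cell embryos and 198.5, 87.5, 29.9 and 22.0 in blastocysts. Its call rests on values mostly under the filter level. Sapcd2 fell by 2.28 (SE 0.28, adjusted p = 5.93e-07), with 30.3, 21.1, 18.7 and 37 in blastocysts and 282, 205, 112 and 262 in 2-cell embryos on 1429404_at, and its oocyte arrays read 8.7 to 13.4. Its other probe sets stood above their oocyte level in blastocysts: 1438615_x_at read 397 ± 36.4 in blastocysts, 307 ± 58.9 in 2-cell embryos and 113 ± 46.8 in oocytes, and 1429405_at read 77.7 ± 27 in blastocysts and 16 ± 8.8 in oocytes. Larp4 on 1455102_at fell by 2.08 and Ppm1a fell by 1.91. The transcription regulators Mier3, Zbtb11 and Cux2 and the carrier Slc25a12 were also lower in blastocysts.

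Over the whole span, 65 members were higher in blastocysts than in oocytes (57.0%, against 21.6% of all) and 3 lower (2.63%, against 16.1%). The median difference was 0.95 for members and 0.12 for all tested probe sets. The largest were Vnn1 at 5.71, Bri3bp on 1428744_s_at at 4.58 and Lemd3 on 1435291_at at 3.67. Rtn4, a reticulon that shapes the endoplasmic reticulum, followed at 3.24 and Cdc14b on 1429418_at at 3.22. The other Bri3bp member read 777 ± 300 in blastocysts and 110 ± 56.2 in oocytes (SD, n = 4). On 1438198_at, not a member, Bri3bp read 213 ± 105 in blastocysts and 181 ± 21.1 in oocytes. On 1439587_at, not a member, Lemd3 read 212 ± 71.5 in blastocysts and 239 ± 87.2 in oocytes. The 3 lower ones were both probe sets of Fbxl20 and Cux2, a homeodomain factor, which read 17.7, 50.1, 64.1 and 12.6 in blastocysts and 196, 172, 161 and 143 in oocytes and fell by 1.85 (SE 0.28, adjusted p = 9.63e-06). Cux2 on 1447821_at, not a member, read 174 ± 92.0 in blastocysts and 138 ± 84.1 in oocytes, a difference within the SDs. With arrays centred on the hybridization controls, 32 members were higher (28.1%, against 7.73% of all) and 8 lower (7.02%, against 28.8%). The median of all tested probe sets was then -0.56 and that of members 0.27. Of the 56 members that rose at the 2-cell stage, 39 were also higher in blastocysts than in oocytes.

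An F test in limma over the 4 stages other than 8-cell called 83 of the 114 members (72.8%), against 46.8% of all tested probe sets. The other 31 did not pass, and 26 were called in none of the 4 comparisons (22.8%, against 49.8% of all tested probe sets), among them both probe sets of Ypel2 and Lhfpl5. Of these 26, 11 had fewer than 4 arrays outside the 8-cell stage at the filter level, among them Dnal1, Irak3 and the member probe set of Prkar2a, and their comparisons rest on values mostly under that level. With the filter read on the 16 other arrays, the F test called 71 of 89 members (79.8%, against 48.2% of all). Dnal1 read 248, 279, 263 and 246 at the 8-cell stage and 2.9 to 76.4 on the other 16 arrays. A missed threshold does not show equal levels, and several of these are dim outside the 8-cell stage.

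Members were also counted in lists of gene families, which were drawn up from gene symbols and leave out some members that the role groups above place in the same class, among them Arih2, Mysm1, Ppm1a, Wnk3 and the cytoskeletal genes, so that these counts are incomplete. Of 9607 named genes on the array, 108 (1.12%) were member genes, and 81 of the 108 fell in none of the 27 lists. Solute carriers held 5 of 168 genes (2.98%), signalling kinases and phosphatases 4 of 261 (1.53%), zinc finger genes 3 of 329 (0.912%), ubiquitin ligases and deubiquitinases 2 of 261 (0.766%), and mRNA decay and poly(A) genes 2 of 33 (6.06%), Ago4 and Cpsf6. Among 127 solute carriers tested, by 1 probe set a gene, 21 rose and 16 fell at the 2-cell stage, with a median difference of 0.10. Among 211 kinases and phosphatases 23 rose and 30 fell, with a median of 0.01, and among 28 mRNA decay genes 6 rose and 4 fell. No member stood in the lists for junctions, adhesion and polarity (31 genes), actin, myosin and microtubules (35), trophectoderm (15), inner cell mass and pluripotency (19), primitive endoderm (15), oocyte genes (35), mitochondrial ribosome and respiration (71), pumps and channels (150) or homeobox and related factors (158). The cleavage-activation list held 1 member, Chka, of 10 genes, and in 5 of these 10 the 8-cell stage was the highest, as in 25.9% of all named genes tested. In gene order, Homer1 and Jmy are direct neighbours among protein-coding genes of GRCm38.p6, as are P4htm and Arih2, with Prkar2a 2 steps from Arih2. Jmy read 915, 1089, 941 and 1117 at the 8-cell stage and 302, 204, 408 and 434 in 2-cell embryos, whereas the Homer1 member read 551, 535, 479 and 633 at the 8-cell stage and 39.5, 55.6, 70.6 and 20.8 in 2-cell embryos. The 2-cell arrays of Jmy lay above all of its oocyte arrays, and those of Homer1 overlapped its oocyte arrays.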

How the data were processed

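Gene expression was measured on 20 arrays, 4 per stage, and the deposited values are intensities on a linear scale, 1 per probe set, for 22575 probe sets including 64 controls. Per the labels, total RNA passed 2 rounds of amplification. Software for scanning and summarization: not given in the sources used here. The authors had scaled each array, as the deposited values show: the mean left after trimming 2% at each end was 150 on all of them. The table holds no detection calls, and precision is limited by the 4 arrays per stage. No 2 arrays held the same values.

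Intensities were transformed to log2(value + 20). A linear model of stage with an intensity trend (limma 3.58.1 in R 4.3.3, 15 residual degrees of freedom, 20 arrays) was fitted to probe sets that reached the overall median intensity, 82.6, on 4 or more arrays, and the procedure was tested on simulated data. Benjamini-Hochberg adjustment ran over all 15234 tested probe sets. Names come from the platform's annotation updated to GRCm38.p6, which held 124 of the 125 members; promoters are RefSeq's for that build. No build is named for the array, so probe positions are not given. Replicate numbers did not pair arrays across stages: correlations of same-numbered arrays' deviations ran from -0.06 to 0.06.

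Members, the 27 gene lists, role groups and the naming rule were chosen with earlier results of these data known. The rule names the 24 largest margins, list members, the strongest calls, members next to the threshold, genes with several probe sets, single deviating arrays, neighbours and families. It named 80 member probe sets of 63 genes. Genes named beyond it, to describe a role group, a promoter or a comparison, were chosen after their values were seen.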

Additional observations from a re-analysis of the deposited data

Results flagged for a closer look

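Among the 80 named member probe sets, 36 groups of 4 arrays held 1 array far from the other 3 by Dixon's ratio. Over all members 49 of 625 groups did (7.84%), where chance gives about 1 in 20. In oocytes these were intensities of 1381 for Larp4 (1437177_at), 61.7 for Slc25a36, 172 for Gm32031, 42.4 for Slc25a41, 130.2 for Chka, 69.0 for Ctsc, 29.4 for Susd1, 50.6 for Jmy and 52.3 for Vnn1. In 1-cell embryos they were 132 for Slco4c1, 132 for Cul5 (1428287_at), 94.7 for Map7d2, 20.7 for Bri3bp, 284 for Nipal1 (1453345_at), 104 for Slc49a4, 74 for Gm32031, 50 for Rtn4, 19.3 for Snhg14 (1436964_at) and 13.0 for Prkaa1. In 2-cell embryos they were 78.5 for Vnn1, 799 for Cdc14b (1429418_at), 6547 for Map1lc3a, 41.3 for Susd1 and 81.9 for Lars2. In 8-cell embryos they were 939 and 53.0 for the Zc3h12c probe sets 1444402_at and 1441787_at, 623 for Slfn9, 3721 for Cdc14b (1437070_at), 173 for P4htm and 65.8 for Pcgf5. In blastocysts they were 49.9 for Jmy, 601 for Gpd1l (1438196_at), 749 for Pik3cb, 159 for Zc3h12c (1444402_at), 56.8 for Susd1 and 54.6 for P4htm. Oocyte replicates 2 and 3 and 1-cell replicate 1 each held 6 of the 49, the most of any array.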

How the results depend on the processing

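The number of members depends on the scale. It was 178 with 5 added before the log, 134 after quantile normalization (112 shared), 94 with arrays centred on their medians, 107 without x_at and s_at probe sets and 137 with stage medians. It was 65 with 80 added, 8 with arrays centred on the hybridization controls, 199 with a threshold of 1.0 and 55 with one of 1.5. Leaving out single arrays gave 110 to 142 members, and 76 members met the rule in every such repeat. Control centring also left 27 members called between oocytes and 1-cell embryos instead of 10, and 40 between oocytes and blastocysts instead of 68. The shift of the median of all probe sets under this centring, -0.70 at most, is part of its construction. Leaving out single arrays gave 47 to 60 members called for 2-cell minus 1-cell, 9 to 12 for 1-cell minus oocyte, 30 to 38 for blastocyst minus 2-cell, 57 to 73 for blastocyst minus oocyte and 81 to 87 in the F test. With the filter on dim values read without the 8-cell arrays, added after seeing the data, these counts were 52, 10, 31, 60 and 71 of 89 members. With the replicate number as a block, the counts were 56, 11, 35, 67 and 83, and 4 of the 20 arrays correlated best with an array of their own number, so the numbers are not treated as a pairing. Of 1920 recomputed margins of named members, 1759 moved by less than the replicate SD, 155 moved by more and 6 turned negative, all with control centring: Slc25a41 to -0.0232, Slfn9 to -0.037, Cux2 to -0.32, Cpsf6 to -0.19, Zbtb41 to -0.36 and Gm32031 to -0.30. The cause was not tested.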
